A study of Mus musculus with 2 samples.

Results

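The 822 cells described here are the low pigment cells that the authors placed in their cluster 2, described here as a cycling group. They were 20.4% of the 4036 cells in the authors' table and 43.3% of the 1900 low pigment cells. Both columns of the rule, the cluster number and the sort, were read from that table. B16 F10 is an established mouse melanoma line that makes melanin. The study asked how low and high pigment cells of this line differ in RNA, cell by cell. Both sorts came from B16 F10 cells with no treatment named in the labels, kept sparse at 100 cells per square centimetre in high-glucose medium with serum until day 7. A flow cytometer then separated them by side scatter, a measure of granularity that stood for pigment, and each sort gave 1 droplet library with a unique molecular identifier (UMI) on every captured transcript. With 1 library per sort there was no replicate, so all differences below are descriptions of these libraries and carry no p-value. Intervals are 95% and cover counting error only.

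Comparisons were made with a pair of groups. The first was the other 1078 low pigment cells from the same library, of which 1023 were in cluster 1. The second was the 1520 high pigment cells of cluster 0, the cycling group of the high sort, from the other library. High pigment cells in cluster 2 numbered 45. No cell barcode sequence was shared between the libraries. The members were chosen by the expression of the cells themselves, from which the authors formed the clusters, so the genes that set cluster 2 apart chose its members in part and cannot be tested on them.

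A dividing cell copies its DNA in S phase and separates the copies in G2 and mitosis, here joined as G2M. Genes for copying DNA are switched on largely by E2F factors ahead of S phase, and genes for mitosis by the MuvB complex with B-MYB and FOXM1, which act through cell cycle homology regions (CHR) and CCAAT boxes. Immediate early genes such as Jun and Fos answer growth factors and stress within minutes. In pigment cells MITF drives melanin genes and also genes of the cell cycle.

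The genes taken to mark the group were Uhrf1, Top2a, Mki67 and Jun, and their promoters are shown because the first 3 stand for copying and separating chromosomes and the fourth for the immediate early genes. Dusp1 was added as the gene with the largest ratio to the cycling high pigment cells among genes with a mean of 50 CPM (counts per 1000000 UMIs) or more. Each sequence is the 250 bases before a transcription start in RefSeq (build GRCm38.p6), read along the gene's strand. Capitals mark matches on either strand to 4 motifs. The E2F motif was GCGGGAA or GCGCGAA. The CHR was TTTGAA or TTCGAA. The CCAAT box was searched by those letters. The stress and cAMP response element was TGACGTC or TGACATC. The serum response box CArG was searched too and had no match in these windows.
Uhrf1: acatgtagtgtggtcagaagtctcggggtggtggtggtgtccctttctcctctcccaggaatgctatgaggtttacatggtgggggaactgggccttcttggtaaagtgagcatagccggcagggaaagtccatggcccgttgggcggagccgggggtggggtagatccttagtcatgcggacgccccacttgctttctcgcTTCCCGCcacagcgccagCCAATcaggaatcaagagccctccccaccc
Top2a: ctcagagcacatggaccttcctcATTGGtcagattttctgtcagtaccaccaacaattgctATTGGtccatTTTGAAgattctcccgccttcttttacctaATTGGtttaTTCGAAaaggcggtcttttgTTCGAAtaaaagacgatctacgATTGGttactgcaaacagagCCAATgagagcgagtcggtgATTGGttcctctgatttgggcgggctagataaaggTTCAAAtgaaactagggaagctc
Mki67: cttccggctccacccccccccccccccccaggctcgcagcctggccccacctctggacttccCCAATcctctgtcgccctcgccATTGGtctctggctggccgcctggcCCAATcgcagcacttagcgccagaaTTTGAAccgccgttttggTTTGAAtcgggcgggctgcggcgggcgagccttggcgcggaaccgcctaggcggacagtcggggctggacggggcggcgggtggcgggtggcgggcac
Jun: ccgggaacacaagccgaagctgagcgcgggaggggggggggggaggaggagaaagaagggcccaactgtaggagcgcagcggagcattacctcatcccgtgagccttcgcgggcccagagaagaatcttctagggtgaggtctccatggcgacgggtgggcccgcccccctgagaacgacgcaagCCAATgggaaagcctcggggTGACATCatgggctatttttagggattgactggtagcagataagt
Dusp1: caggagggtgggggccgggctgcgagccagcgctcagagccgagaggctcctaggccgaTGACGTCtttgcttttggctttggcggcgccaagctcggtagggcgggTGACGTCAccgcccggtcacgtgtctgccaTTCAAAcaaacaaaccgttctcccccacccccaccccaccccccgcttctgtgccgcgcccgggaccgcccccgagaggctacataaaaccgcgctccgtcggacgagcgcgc
The Uhrf1 window, chr17:56303087-56303336 on the plus strand, belongs to the more upstream of 2 starts in the table. It held 1 E2F match, 48 bases before the start, and 1 CCAAT box. The Top2a window, chr11:99024190-99024439 on the minus strand, held 4 CHR matches and 6 CCAAT boxes. The Mki67 window, chr7:135716380-135716629 on the minus strand, held 2 CHR matches and 3 CCAAT boxes. The Jun window, chr4:95052223-95052472 on the minus strand, held 1 response element and 1 CCAAT box. The Dusp1 window, chr17:26508473-26508722 on the minus strand, held 3 response element matches, a pair of which overlap as TGACGTCA read on both strands, and 1 CHR match. Among all 27025 genes of the table, 5.74% had an E2F match, 19.6% a CHR match, 37.5% a CCAAT box and 8.56% a response element in such a window. Of the 98 mitosis genes listed for this work, 79 were in the table, and 38.0% of those had a CHR match and 67.1% a CCAAT box. A match is a run of letters and not shown to be a site in use.

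Of the 4 marker genes Top2a, Mki67 and Uhrf1 set the group apart from the other low cells, whereas against the cycling high cells Mki67 was within the limit used for gene lists below. Levels are UMIs of a gene per 1000000 UMIs, summed over a group's cells (CPM). Top2a, which untangles DNA strands before they part (chr11:98992943-99024189), stood at 444 CPM (434 to 454) in cluster 2 low cells, 70.1 CPM in the other low cells and 319 CPM in the cycling high cells. Mki67, which coats mitotic chromosomes (chr7:135689784-135716361), stood at 266 CPM (259 to 275), 57.8 CPM and 216 CPM in the same order. Uhrf1, which carries DNA methylation over to newly made strands (chr17:56303321-56323486), stood at 180 CPM (174 to 187), 93.3 CPM and 65.6 CPM. All 3 stood highest in cluster 2 low cells among these groups, but the gap to the cycling high cells was 1.23-fold for Mki67 (1.18 to 1.28) and 1.39-fold for Top2a (1.35 to 1.44). Among S cells alone Mki67 was at 184 CPM in cluster 2 and 224 CPM in the cycling high cells, and Top2a at 352 and 351 CPM, while in G2M both were higher in cluster 2, at 374 against 246 CPM and 566 against 353 CPM. Jun, an AP-1 transcription factor (chr4:95049034-95052222), stood at 701 CPM (688 to 714), 980 CPM and 92.1 CPM. Jun was 1.40-fold lower than in the other low cells (1.36 to 1.43) and 7.62-fold higher than in cycling high cells (7.27 to 7.99). Jun thus did not mark cluster 2 within the low library. In the contrast with cycling high cells sort, library and cluster cannot be told apart.

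Cells were also thinned to 7500 UMIs each, since cluster 2 low cells were the deeper ones with a median of 18959 UMIs against 14208 and 13853.5 (after thinning no cell was lost). At equal depth Top2a was detected in 91.9% of cluster 2 low cells (89.8 to 93.6), against 26.9% of the other low and 83.6% of the cycling high cells. For Mki67 the shares were 76.5%, 26.2% and 71.2%. For Uhrf1 they were 64.6%, 41.4% and 35.6%, and for Jun 96.0%, 97.2% and 41.8%. In the 746 other low cells that the authors called G1, which should make little of the cycle genes, the shares were 14.5% for Top2a, 19.6% for Mki67 and 30.2% for Uhrf1. All 3 genes lay above that level in cluster 2. Phase calls and clusters both rest on these cells' expression, so that order was largely set beforehand and is description only. A UMI of at least 1 of Uhrf1, Top2a and Mki67 was found in 99.3% of cluster 2 low cells, 95.3% of cycling high cells, 61.8% of the other low cells and 48.5% of those G1 cells. Before thinning the cells' own median depth was 13805.5 UMIs in that G1 group.

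The cluster was almost without G1 cells. By the authors' phase calls 490 of the 822 cells were in S (59.6%, 56.2 to 63.0), 329 in G2M (40.0%, 36.7 to 43.5) and 3 in G1 (0.365%, 0.0753 to 1.06, Clopper-Pearson). It held 69.5% of all S cells and 73.8% of all G2M cells of the low library, and 0.401% of the G1 cells. The other low cells were 69.2% G1, 19.9% S and 10.9% G2M. Cycling high cells leaned the other way from cluster 2, with 30.3% in S, 55.5% in G2M and 14.3% in G1. Phases rest on gene expression, so they are not independent of the clustering. Calls made anew from the replication and mitosis lists gave 64.0% S and 35.0% G2M in cluster 2 low cells and 37.3% and 50% in the cycling high cells, all thinned.

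**Figure D1:**
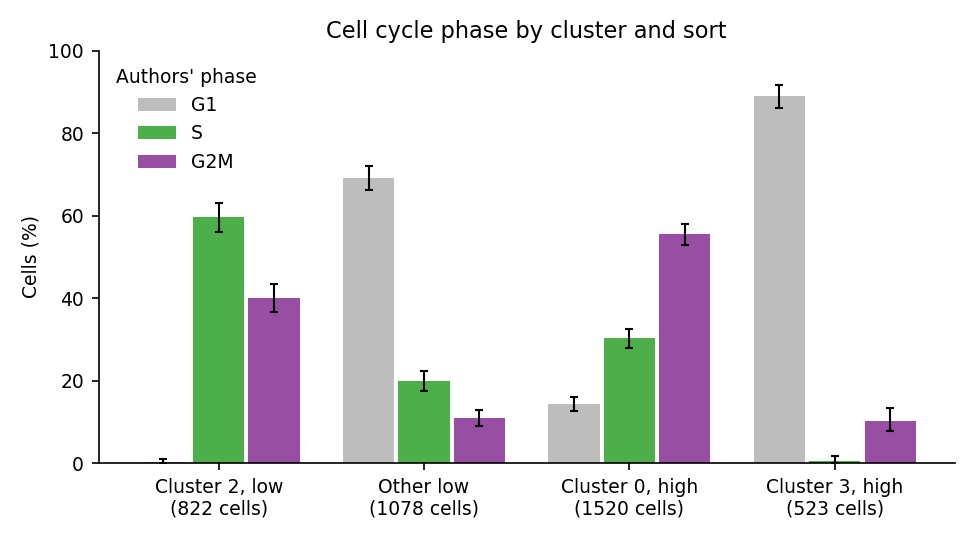
Bars give the percent of cells in each of the authors' 3 phases for 4 groups, and error bars the 95% Clopper-Pearson interval. Cluster 2 low cells were 59.6% S and 40.0% G2M, whereas cycling high cells (cluster 0) were 30.3% S and 55.5% G2M.

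Against the other low cells, cluster 2 low cells carried more RNA of nearly every gene list for copying and separating chromosomes. Of 8004 genes measured at a mean of 10 CPM or more, 489 (6.11%) had a ratio of 1.5 or more and 149 (1.86%) were lower by that factor. For gene lists a smaller limit was used, at least 25% higher or at least 20% lower, which 13.5% of all genes passed upward and 7.73% downward. The clusters were drawn from these values, so the counts describe what cluster 2 is. The largest ratio among genes with a mean of 50 CPM or more was that of Top2a, 6.33-fold (5.95 to 6.75). Next came Incenp, a subunit of the chromosomal passenger complex (6.1-fold), and Kif11, the motor that pushes spindle poles apart (6.09-fold). They were followed by Hist1h2ae (6.06-fold), a histone H2A gene, and by the spindle proteins Nusap1 (5.74-fold) and Prc1 (4.68-fold). Mki67 was 4.61-fold higher (4.30 to 4.95).

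The genes for copying DNA were higher as a block. All 22 measured members of the 24 replication licensing genes were past the list limit upward, with a median log2 ratio of 0.97, beside 0.01 over all genes. The MCM genes encode the ring helicase that opens DNA. Mcm5 was at 107 CPM against 61.3 CPM, Mcm6 at 215 CPM against 107 CPM and Mcm2 at 153 CPM against 95.3 CPM. Cdc45, which activates that helicase, was at 45.2 CPM against 13.7 CPM, a wider gap than that of any of these MCM genes. All 30 replication fork genes were higher too, with a median log2 ratio of 1.09. Pcna, the sliding clamp, was at 298 CPM against 162 CPM, and Fen1, which trims lagging strands, at 37.0 CPM against 11.6 CPM. Of 16 nucleotide supply genes 12 were higher and 0 lower. Among them Rrm2, the ribonucleotide reductase subunit that limits deoxynucleotide supply, was at 192 CPM against 66.5 CPM, and Tk1, thymidine kinase, at 104 CPM against 35.5 CPM. DNA repair genes were higher in 19 of 20 measured members of 24. Rad18 was the one not past the limit, at 160 CPM against 165 CPM.

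The regulators of S phase entry were mostly higher, with exceptions. Of 24 measured members of 25, 15 were higher and 1 lower (median log2 ratio 0.72), beside 13.5% and 7.73% of all genes. Ccne1, the cyclin that starts S phase, was at 94.4 CPM against 45.6 CPM, E2f1 at 59.9 CPM against 32.7 CPM, and E2f8, a repressor of the E2F family, at 22.5 CPM against 4.58 CPM. The D cyclins, which couple the cycle to growth signals, did not share this. Ccnd1 was at 191 CPM against 224 CPM and Ccnd2, the single lower member, at 223 CPM against 339 CPM. Cdkn1a (p21), an inhibitor of cyclin-dependent kinases, was 1.68-fold higher, at 309 CPM against 184 CPM.

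Genes of mitosis had the widest ratios. Chromosome condensation genes were higher in 15 of 16, with a median log2 ratio of 1.72, spindle and cytokinesis genes in 30 of 30 measured of 32 (1.55), mitotic kinases and partners in 21 of 22 measured of 24 (1.41) and kinetochore genes in 21 of 23 measured of 26 (1.39). In these 4 lists 0 genes were past the limit downward. Aurkb, the kinase that corrects wrong spindle attachments, was at 66.7 CPM against 8.61 CPM, and Esco2, which locks sister chromatids together, at 54.3 CPM against 8.37 CPM. Ccnb2, a mitotic cyclin, was an exception at 45.1 CPM against 55.6 CPM. The genes of the exit from mitosis were higher in 9 of 16 (median log2 ratio 0.36). Fbxo5, which holds the anaphase-promoting complex in check, was at 38.0 CPM against 6.41 CPM, while Pttg1 (securin) was at 36.2 CPM against 41.2 CPM.

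Chromatin and tubulin genes were higher in 19 of 22. Hmgb2, a chromatin protein of dividing cells, was at 863 CPM against 358 CPM, and Tubb5, the main beta-tubulin, at 961 CPM against 415 CPM. Histone and tubulin genes have close copies, so how reads were divided between them is uncertain. Among genes with a mean of 50 CPM or more the smallest ratio belonged to another histone gene, Hist1h2bc, at 79.2 CPM against 224 CPM (2.83-fold lower, 2.66 to 3.02), whereas Hist1h2ae was at 162 CPM against 26.8 CPM and the linker histone Hist1h1e at 140 CPM against 25.3 CPM. The kit primes on poly(A), which most histone messages made in S phase lack.

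Immediate early and stress-response transcription factor genes ran lower in cluster 2 than in the rest of the low library. Of 35 measured members of 39, 0 were higher and 17 lower (median log2 ratio -0.32), beside 13.5% and 7.73% of all genes. Besides Jun these included Nr4a2, an orphan nuclear receptor, at 183 CPM against 350 CPM, Klf4, a Krüppel-like factor, at 262 CPM against 490 CPM, and Fosl2, an AP-1 partner, at 78.4 CPM against 177 CPM. The members did not all differ alike. Fos was at 129 CPM against 144 CPM, Fosb at 112 CPM against 117 CPM, Dusp1 at 162 CPM against 176 CPM and Egr1 at 111 CPM against 91.5 CPM, all within the limit. Other genes at the low end were Zbtb1 (40.1 against 95.8 CPM), Apold1 (43.4 against 100.3 CPM) and Sox4 (98.1 against 182 CPM).

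Pigment genes also ran slightly lower than in the other low cells. Of 16 measured melanin genes of 17, 8 were lower and 0 higher (median log2 ratio -0.33). Within S cells 4 of 16 were lower and 0 higher, and within G2M cells 2 were lower and 1 higher (median log2 ratio -0.12), beside 8.14% and 7.98% of all genes lower. The enzymes themselves were within the limit. Tyr, the rate-limiting enzyme of melanin synthesis, was at 112 CPM against 139 CPM, Tyrp1 at 1837 CPM against 1828 CPM and Dct at 5513 CPM against 6192 CPM. Trpm1, a channel gene under MITF, was at 92.6 CPM against 143 CPM, and Mitf itself at 190 CPM against 252 CPM. Sox9 was at 17.6 CPM against 36.6 CPM. Cholesterol synthesis genes were higher in 11 of 25, with 0 lower and a median log2 ratio of 0.31. The endoplasmic reticulum stress and ATF4 list split evenly, with 5 of 28 measured members of 29 higher and 5 lower. The lower ones included the chaperones Hspa5 (987 against 1270 CPM) and Hsp90b1 (704 against 936 CPM), and the higher ones the one-carbon and serine enzymes Shmt2 (140 against 95.6 CPM) and Psat1 (204 against 149 CPM). Ribosome biogenesis genes were higher in 1 of 25, heat shock genes in 0 of 14 and NRF2 targets in 1 of 22, beside the 13.5% of all genes. Of the 13 mitochondrially encoded genes 0 were past the limit in either direction.

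Differences from the other low cells were also present among cells given the same phase. Such cells were not alike in the authors' phase scores. The median G2M score of S cells was -0.0337 in cluster 2 and -0.2295 in the other low group. For G2M cells the median S score was 0.0189 and -0.1059 in the same order. Clusters and phases both rest on these cells' expression, so the list counts below were set in part beforehand. How far the score gaps account for them was not tested. Among S cells 12.9% of all genes were past the list limit upward and 8.14% downward, and of the same lists 24 of 30 fork genes, 20 of 22 mitotic kinases and 28 of 29 spindle genes passed upward. Licensing genes passed in 11 of 23, with a median log2 ratio of 0.32 in place of 0.97. Top2a was at 352 CPM in S cells of cluster 2 against 97.5 CPM in S cells of the other low group. Among G2M cells, where 14.1% of all genes passed upward and 7.98% downward, 22 of 29 fork genes, 14 of 21 licensing genes, 10 of 23 mitotic kinases and 16 of 31 spindle genes did. Immediate early genes were lower in 15 and higher in 1 of 35 in S, and lower in 10 and higher in 2 of 34 in G2M. Uhrf1 was close to level within a phase, at 252 CPM against 225 CPM in S and 88.9 CPM against 81.2 CPM in G2M. All 12 genes with the largest ratios kept their direction and stayed past 1.5-fold in both phases. Of the 12 with the smallest, all kept their direction in both phases, 12 stayed past 1.5-fold in S and 9 in G2M. Of all genes 3.91% were past 1.5-fold upward and 2.05% downward in S, and 4.45% and 1.8% in G2M. The 12 genes at each end were picked by their ratio over the same groups, and nearly all cluster 2 cells were in S or G2M. Keeping direction within phases was thus largely set beforehand, and the shares of all genes are no like background for these genes.

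The 822 cells were themselves spread along the cycle. Of 8051 genes, 120 (1.49%) were 1.5-fold or more above in the cluster's S cells relative to its G2M cells and 175 (2.17%) as far below, and these phases were called from such genes. Uhrf1 led the S side among genes with a mean of 50 CPM or more, at 252 CPM in S and 88.9 CPM in G2M. E2f1 (82.9 and 30.9 CPM), Mcm4 (112 and 41.9 CPM) and Cdt1, which loads the helicase (77.9 and 30.1 CPM), came next. Ube2c, which marks mitotic proteins for destruction, led the other side at 65.3 CPM in S and 408 CPM in G2M. Cenpa, the histone of centromeres (46.2 and 204 CPM), Cenpf (80.6 and 318 CPM) and Aurka, a spindle pole kinase (25.3 and 97.0 CPM), followed. Top2a was at 352 CPM in S and 566 CPM in G2M and Mki67 at 184 and 374 CPM, so both were already well expressed in S. Jun was at 620 CPM in S and 800.4 CPM in G2M, the narrowest gap of the 4 markers. Cholesterol genes leaned to G2M, with 11 of 24 past the list limit as lower in S and 0 as higher, where 10.6% of all genes were lower and 6.45% higher. G2M cells were deeper, with a median of 20831 UMIs against 17357.5.

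**Figure D2:**
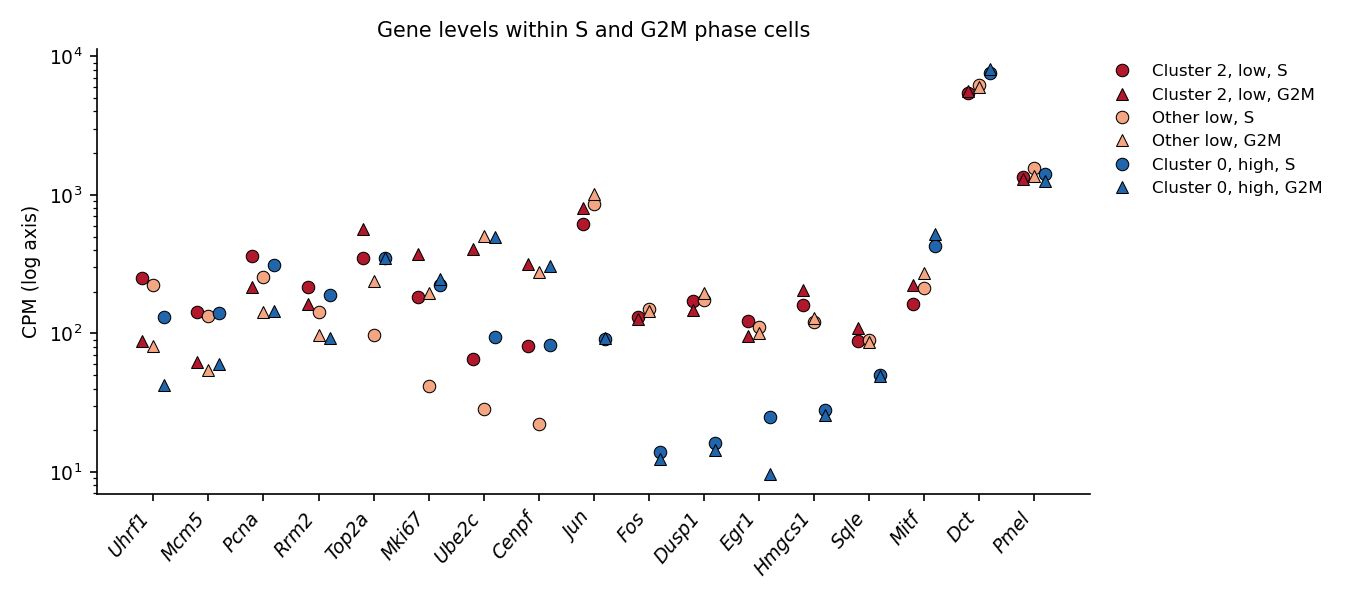
CPM on a log axis for 17 genes in S cells (circles) and G2M cells (triangles) of cluster 2 low, other low and cluster 0 high groups. In cluster 2 low cells Uhrf1 was at 252 CPM in S and 88.9 CPM in G2M, and Ube2c at 65.3 and 408 CPM, and Jun, Fos, Dusp1, Egr1 and Hmgcs1 were higher in both low groups than in the high group in either phase.

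Cell by cell, the replication list of 54 genes took a median of 0.507% of a thinned cell's UMIs in cluster 2, against 0.213% in the other low cells and 0.333% in cycling high cells. The mitosis list of 98 genes took 0.760%, 0.227% and 0.693%. Of the 822 cells, 98.2% were above the median of the other low cells for replication and 99.8% for mitosis. The clusters were drawn from these same counts, so this separation was largely set by the choice of members and describes it only. Within cluster 2 the lists traded places, with a rank correlation of -0.395 over 822 cells. It was 0.514 over the 1078 other low cells and 0.002 over the 1520 cycling high cells, and all of these share one library each and a fixed UMI total per cell. The immediate early list of 39 genes took 0.387% of UMIs in cluster 2, 0.520% in the other low and 0.120% in cycling high cells. Of cluster 2 low cells 99.3% (98.4 to 99.7) lay above the median of the cycling high cells and 17.0% (14.5 to 19.8) above that of the other low cells.

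**Figure D3:**
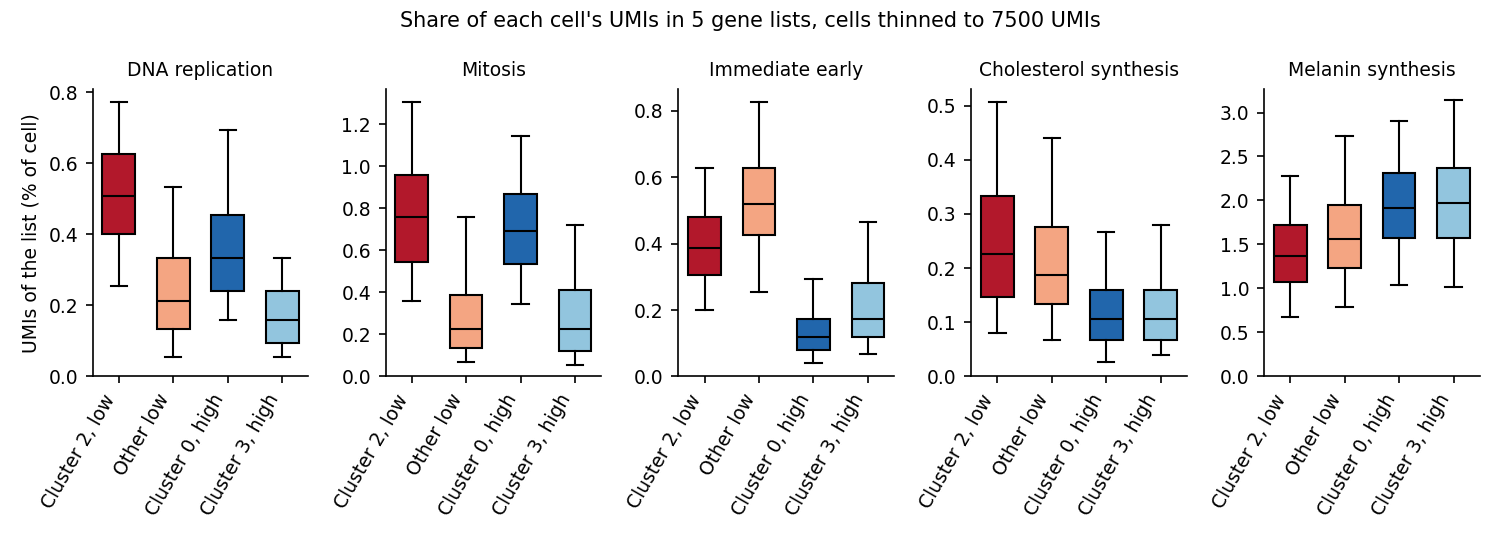
Percent of each cell's UMIs in 5 gene lists, with cells thinned to 7500 UMIs, for 4 groups (box, quartiles and median, and whiskers from the 5th to the 95th percentile). Of these 4 groups cluster 2 low cells had the highest medians for replication and mitosis, and for immediate early genes they lay between the other low cells (median 0.520%) and the cycling high cells (0.120%).

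Against the cycling cells of the high sort, the replication genes again ran higher over all phases and within G2M cells. Within S cells they were nearer to the shares of all genes. Mitosis genes were closer over all phases, though not within G2M cells. This contrast sets 1 library against another, so sort, library and cluster cannot be told apart. By the 1.5-fold limit 943 of 7871 genes (12%) were higher in cluster 2 low cells and 318 (4.04%) lower. The median of all genes was itself 0.12 above 0 on the log2 scale. Scaling by the trimmed mean of M-values (TMM), which shifts all ratios down by 0.18, turned the split into 492 higher and 680 lower, and setting the median gene to 1 gave 606 and 516. By the list limit 29.4% of all genes were higher and 12.3% lower. Under TMM 1263 of the 7871 genes were past the list limit upward and 1878 downward.

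Among genes with a mean of 50 CPM or more the largest ratios were those of immediate early genes. Dusp1, a phosphatase that shuts off MAP kinases, stood at 162 CPM in cluster 2 low cells and 15.7 CPM in cycling high cells, 10.3-fold higher (9.20 to 11.5). Fos was at 129 against 14.1 CPM (9.14-fold), Fosb at 112 against 12.6 CPM (8.94-fold) and Egr1 at 111 against 14.4 CPM (7.70-fold). Jun followed at 7.62-fold. Of 32 measured members of the 39, 26 were higher and 1 lower (median log2 ratio 1.58, or 1.40 under TMM), beside 29.4% and 12.3% of all genes. The lower one was Dusp2, at 13.5 against 18.4 CPM. Other genes in the top 12 were Sik1, a kinase induced by cAMP (7.21-fold), Nr4a1 (6.93-fold), Btg2, an antiproliferative factor (6.64-fold), Tob2 of the same family (5.22-fold) and Hes1, a Notch target (4.83-fold). Within S cells 25 of 32 immediate early genes were higher, beside 24% of all genes, and within G2M cells 27 of 32, beside 29.2%. Dusp1 was at 172 against 16.2 CPM in S and 149 against 14.4 CPM in G2M. The high level was thus found in cells of both phases. The 12 genes with the largest ratios and the 12 with the smallest all kept their direction within each phase, and were past 1.5-fold there. Of all genes 9.45% were so upward and 4.74% downward in S, and 12.3% and 3.88% in G2M. These 12 at each end were picked by their ratio over the same groups, so keeping direction was largely set beforehand.

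Cholesterol synthesis stood out next. Of 24 measured genes of 25, 22 were higher and 0 lower (median log2 ratio 0.93, or 0.75 under TMM), beside 29.4% and 12.3% of all genes. Hmgcs1, which makes HMG-CoA, was at 180 against 25.6 CPM (7.01-fold, 6.40 to 7.68). Idi1, an isomerase of the same route, was at 162 against 53.5 CPM. Heat shock genes were higher in 10 of 14 measured of 17. Under TMM 4 were higher and 1 lower, beside 1263 higher and 1878 lower of all 7871 genes. Hspa8, a constitutive chaperone, was at 2133 against 1003 CPM. Thinned cells gave medians for the cholesterol list of 0.227% of UMIs in cluster 2 and 0.107% in cycling high cells. The other low cells were nearer to cluster 2, at 0.187% for that list, 126 CPM for Hmgcs1 and 1722 CPM for Hspa8.

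Replication licensing genes were higher in 15 of 23 measured (median log2 ratio 0.63) and fork genes in 26 of 30 (0.64). Nucleotide supply genes were higher in 12 of 16 (0.58) and DNA repair genes in 16 of 21 (0.60), with 0 lower in each of these lists. Of all genes 29.4% were higher and 12.3% lower. Under TMM the higher counts of these lists were 13, 20, 12 and 13 and the lower counts 2, 0, 1 and 1, and their medians stayed above 0. Of all 7871 genes 1263 were higher and 1878 lower under TMM. Uhrf1 was 2.75-fold higher (2.58 to 2.93). Pold1, the catalytic subunit of polymerase delta, was at 46.0 against 17.2 CPM and Dscc1, a clamp loader subunit, at 29.7 against 10.8 CPM. Cluster 2 had the larger share of S cells. Among S cells alone 8 of 30 fork genes were higher and 3 lower, beside 24% and 13.7% of all genes. Licensing genes in S cells were higher in 7 of 23 and lower in 2. Uhrf1 was still higher there, at 252 against 132 CPM, but by less, with a log2 ratio of 0.93 in place of 1.46. Pcna was at 361 against 314 CPM and Mcm5 at 142 against 140 CPM. Among G2M cells 24 of 30 fork genes were higher and 0 lower, beside 29.2% and 12.2%, with Pcna at 217 against 145 CPM.

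Over all phases mitosis genes were closer. Mitotic kinases had 6 higher and 4 lower of 23 measured, with a median log2 ratio of 0.16 that changed sign under TMM (-0.02). Kinetochore genes had 9 higher and 3 lower of 25 and spindle genes 11 higher and 1 lower of 30, beside 29.4% and 12.3% of all genes. Condensation genes were higher in 11 of 16 and lower in 0, with a median log2 ratio of 0.45 (0.27 under TMM). Under TMM the numbers higher were 5 for condensation, 5 for spindle, 5 for kinetochore and 3 for kinase genes. The numbers lower were 0, 2, 4 and 9, beside 1263 higher and 1878 lower of all 7871 genes under TMM. Phase shares differ between these groups, and among G2M cells 21 of 32 spindle, 14 of 25 kinetochore, 11 of 23 kinase and 12 of 16 condensation genes were higher, with 0, 1, 3 and 0 lower, beside 29.2% and 12.2% of all genes. Among S cells the numbers higher were 5 of 30, 4 of 25, 5 of 23 and 3 of 16, with 0, 2, 3 and 0 lower, beside 24% and 13.7%. Melk, a kinase of dividing cells, was at 38.7 against 18.0 CPM. Ube2c was at 214 against 342 CPM, Cenpa at 115 against 176 CPM, Ccnf, a cyclin that targets proteins for destruction, at 17.6 against 33.2 CPM, and Wee1, which holds CDK1 inactive, at 23.0 against 38.8 CPM. Ccne1 was higher, at 94.4 against 39.5 CPM, and Cdkn1a lower, at 309 against 483 CPM. The histone Hist1h2ae was at 162 against 41.8 CPM.

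Genes of the pigment lineage were at the low end. Mitf was at 190 CPM in cluster 2 low cells and 473 CPM in cycling high cells, 2.49-fold lower (2.39 to 2.59), and Sox10, which activates it, at 111 against 234 CPM. Ppargc1a, a coactivator of mitochondrial genes that MITF controls in melanoma, was at 83.6 against 224 CPM. The lineage factors did not differ in one direction, since 4 of 11 measured members of 15 were higher and 5 lower. By the same limit 29.4% of all genes were higher and 12.3% lower. Under TMM 3 lineage factors were higher and 6 lower. The higher ones included Tfe3, a relative of MITF, at 29.9 against 17.2 CPM and Zeb2 at 146 against 100.0 CPM, while Pax3, at 318 against 271 CPM, was within the limit. Melanin genes were lower in 8 of 16 and higher in 1, with a median log2 ratio of -0.35. Under TMM 12 were lower and 0 higher, with a median of -0.53, beside 1878 lower and 1263 higher of all 7871 genes. Dct was at 5513 against 8111 CPM, Mlana at 1526 against 2324 CPM and Tspan10 at 68.4 against 128 CPM. Tyr, at 112 against 112 CPM, and Pmel, at 1324 against 1243 CPM, were level. The smallest ratios also held Pmepa1, a brake on TGF-beta signalling (55.4 against 177 CPM), Hmox1, haem oxygenase (114 against 284 CPM), Lgals3, galectin-3 (278 against 675 CPM) and Fabp7, a fatty acid carrier (39.4 against 98.3 CPM). Gclm, a subunit of the enzyme that starts glutathione synthesis, was at 252 against 502 CPM. Of the 22 NRF2 targets 2 were higher and 7 lower, and under TMM 2 and 11.

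**Figure D4:**
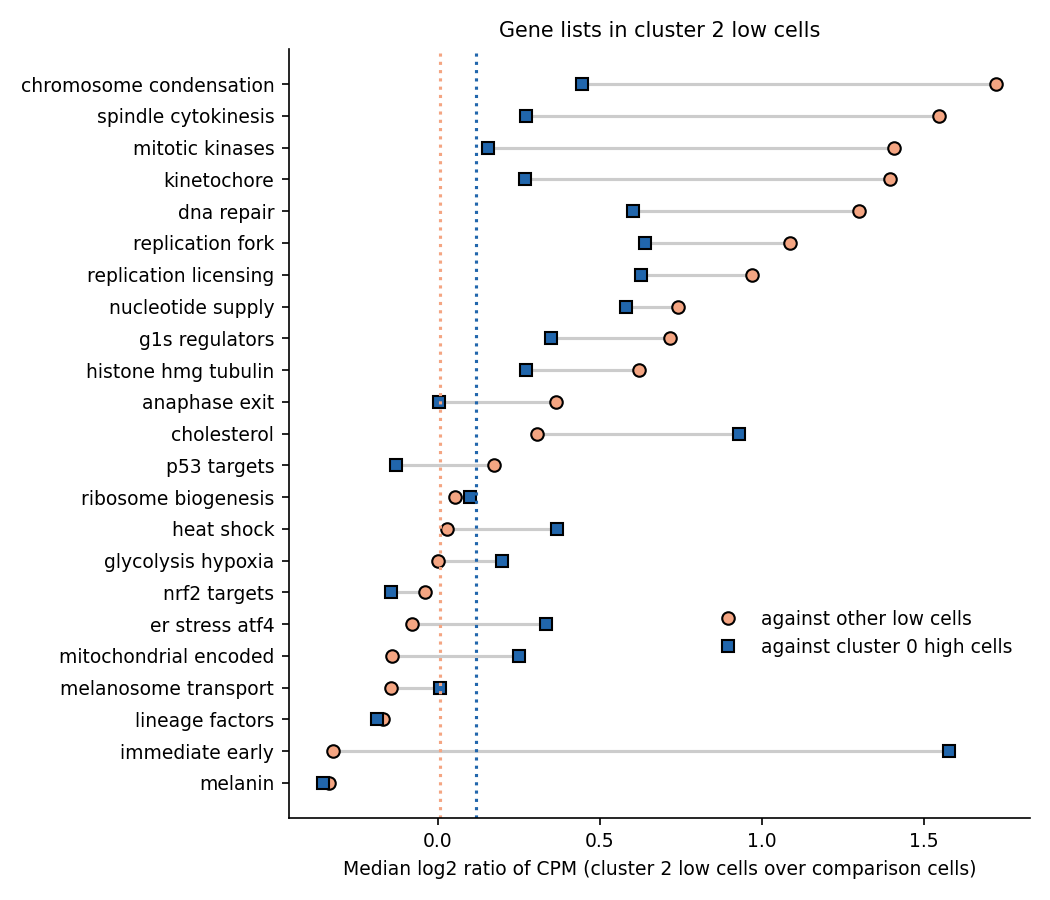
Median log2 ratio of CPM in 23 gene lists for cluster 2 low cells over the other low cells (circles) and over cluster 0 high cells (squares), with dotted lines at the medians of all measured genes. The condensation list lay at 1.72 against other low cells and 0.45 against cycling high cells, and the immediate early list lay at -0.32 and 1.58.

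Each cycling cluster was also set beside the less cycling cluster of its own library, cluster 2 against cluster 1 for low and cluster 0 against cluster 3 for high pigment. Of 7426 genes measured in both, 422 were higher by 1.5-fold in cluster 2 and 355 in cluster 0, and 309 were shared, which is 73.2% and 87% of the lists. Of 138 and 163 lower genes 52 were shared, or 37.7% and 31.9%. Genes past the limit in opposite directions numbered 0. Over the genes measured in each library, 6.13% were higher and 2.06% lower in the low one, and 4.78% and 2.41% in the high one. By the list limit cholesterol genes were higher in 9 of 25 in the low library and 0 of 24 in the high library, beside 13.5% and 9.82% of all genes. Immediate early genes were lower in 18 of 35 and 22 of 30, where 8.04% and 14.8% of all genes were lower.

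Markers of other cell types were scarce in the 822 cells, which gave 16064006 UMIs. Fibroblast markers summed to 21 UMIs over 7 genes with Col3a1 and Lum at 0, keratinocyte markers to 4 over 6 genes, leukocyte markers to 107 over 8 genes with Cd14 at 0, and erythroid markers to 7 over 5 genes. Of 394 endothelial UMIs over 5 genes, 391 came from Pecam1, and Emcn was at 0. Pecam1 was at 24.3 CPM in cluster 2 and 20.5 CPM in the other low cells, against 1.52 CPM in cycling high cells, 16.1-fold (11.3 to 23.5). The Schwann cell list summed to 3547 UMIs, of which Mbp gave 2208. Summed fibroblast markers stood at 1.31, 1.28 and 2.45 CPM in cluster 2, other low and cycling high cells, and leukocyte markers at 6.66, 4.83 and 2.36 CPM. None of the 7 melanocyte markers was at 0 in any of these groups. Mitochondrial UMIs had medians of 5.41%, 5.78% and 4.83% in cluster 2, other low and cycling high cells, and cells called doublets were 11, 7 and 13. With called doublets left out, 494 genes were higher and 155 lower by 1.5-fold against the other low cells, in place of 489 and 149. Against the cycling high cells 945 and 315 were, in place of 943 and 318. The part of the mitochondrial share and of other cell types in the differences was not tested.

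The 45 high pigment cells of cluster 2 were few, and 33 of them were in G2M (73.3%, 58.1 to 85.4). Their thinned medians were 0.347% of UMIs for the immediate early list, 1.44% for the melanin list and 0.267% for the cholesterol list. The same medians were 0.387%, 1.37% and 0.227% in cluster 2 low cells and 0.120%, 1.91% and 0.107% in the cycling high cells of cluster 0. For the mitosis list the 45 cells had a median of 0.960%, above the 0.760% of cluster 2 low cells, and for the replication list 0.387%, below their 0.507%.

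The authors' deposited scores per cell also differed between the groups. The score hMel_ProState1 had a median of 0.542 in cluster 2 low cells (quartiles 0.525 and 0.559), 0.459 in the other low cells and 0.512 in cycling high cells. The score hMel_MatState1 had medians of 0.656, 0.670 and 0.679 in the same groups, and 0.650 in the high pigment cells of cluster 2. The score hMel_StemState1 was 0.323, 0.330 and 0.296. The sources used here do not say what these names stand for or which genes the scores rest on.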

How the data were processed

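RNA of B16 F10 cells was captured with a 3' poly(A) droplet kit, per the labels' protocols. The authors deposited UMI counts per gene and cell made with Cell Ranger 6.1.2 and mm10, per the submitters' processing notes. A deposited cell table gave cluster, sort, phase, the percent of mitochondrial counts, and the authors' score values per cell. The matrix held 32285 genes and 5818 barcodes, of which the 4036 in the table were used, each with at least 7500 UMIs and under 10% mitochondrial counts.

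Counts were summed per group and scaled to CPM. Genes with a mean of at least 10 CPM over both groups were compared. Ratios carry exact conditional binomial intervals, levels Poisson intervals, and shares Clopper-Pearson intervals. Cells were thinned to 7500 UMIs with a fixed seed. Scrublet in scanpy 1.11.5 (expected rate 0.06) called doublets, which were kept except in one alternative. edgeR 4.0.16 served for TMM factors only. The calculations were tested on simulated data. Gene positions came from GENCODE and promoter sequences from RefSeq.

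Genes were named by a rule: a mean of at least 50 CPM and the 12 largest and 12 smallest ratios per comparison, plus the top 3 and bottom 2 of each list. Not every gene so picked is named, and some genes of known role and all values by phase were chosen after their values were seen. The members and lists were chosen with earlier results of these data known. Each sort was 1 library, so no test was run.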

Additional observations from a re-analysis of the deposited data

How the results depend on the processing

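No paired analysis was possible because each sort was 1 library and no test was run. Against the other low pigment cells, 489 genes were higher and 149 lower. These counts became 797 and 364 with a minimum of 2 CPM, and 138 and 41 with a minimum of 50 CPM. Among S cells alone 311 genes were higher. Weighting the 3 phases equally gave 787 and 460, and that setting rests on 3 G1 cells in cluster 2. Against the cycling high pigment cells, 943 and 318 became 492 and 680 under TMM and 606 and 516 with the median gene set to 1. A minimum of 2 CPM gave 1817 and 613, a minimum of 50 CPM 178 and 106, and equal phase weights 1426 and 484. Phase calls made anew gave 64% S with and without thinning, and 35% or 35.9% G2M.

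Against the other low cells the log2 ratio changed sign in G2M cells for Cdc25c (-0.27), Cdca3 (-0.00), Plk2 (0.39) and Hmox1 (0.23). With equal phase weights it did so for Gins4 (-0.12), Cdc25c (-0.35), Lss (-0.02) and Slc7a11 (0.32). The cause was not tested. Against the cycling high cells only the genes picked by the naming rule for that comparison were followed, and no called one changed sign. The scaling shifts were smaller than the list limit, so they could not change the sign of a called gene. List genes outside that pick did change sign among S cells. Examples are Rad51ap1 (log2 ratio 0.39 over all phases and -0.09 in S) and E2f7 (0.35 and -0.19). Thinning and leaving out doublets kept all 4 counts within 1.5 times. The spread between cultures could not be measured with 1 library per sort.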
